A study of Mus musculus with 6 samples.

Results

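Genes of glycolysis and of the transcriptional response to low oxygen were examined in P19, a pluripotent embryonal carcinoma line of the mouse, with and without the peptide PDTLN1. The genes were chosen by symbol from 42 listed hypoxia targets and glycolytic enzymes, and all 42 were among the 34745 genes of the count table. The PDTLN1 group held 3 libraries of P19 cells treated with the peptide, and the control group held 3 libraries of P19 cells labelled as given no treatment. All 6 libraries share the line, the serum-containing α-MEM medium and the RNA library kit. The labels name no dose, duration, vehicle or oxygen level, do not say whether libraries came from separate cultures, and carry an extraction text that speaks of retinas. P-values therefore measure the spread between these libraries, which may be technical, and all values come from a single cell line.

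Hypoxia-inducible factor (HIF) is a pair of subunits, an alpha subunit that is made all the time and destroyed when oxygen is plentiful, and the stable partner ARNT. Prolyl hydroxylases of the EGLN family use oxygen to mark the alpha subunit, the VHL protein then leads it to degradation, and in low oxygen the subunit persists and binds short DNA motifs near its targets. Many targets are glucose transporters and glycolytic enzymes, and pluripotent cells are known for running glycolysis at a high rate even with oxygen present. Much of this control acts on protein stability, which RNA counts do not measure.

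Total counts lay between 10381307 and 11663081 per library, and the 42 genes together held between 1.38% and 1.84% of them. A check of the label against marker genes found pluripotency genes at a summed 3212 to 3350 CPM (counts scaled to a common library size with TMM factors) in PDTLN1 libraries and 3354 to 3501 CPM in control libraries. Of these 10 genes, 8 were tested. Of 12 retina markers, 1 had enough counts to be tested, Crx, Arr3 and Opn1sw were at 0 counts in every library, and the list summed to at most 8.95 CPM. Of 8 blood and immune markers, 4 were tested, Cd3e was at 0 counts in every library, and the list summed to 16.9 to 19.0 CPM in PDTLN1 libraries and 17.0 to 18.9 CPM in control libraries. Of 6 fibroblast markers, 5 were tested, and the list summed to 57.1 to 67.3 CPM in PDTLN1 libraries against 75.4 to 76.8 CPM in control libraries. The sums were not tested. Among the tested genes of each marker list, 0 passed edgeR's quasi-likelihood test at an adjusted p of 0.05, beside 0.0217% of all tested genes. In bulk RNA, fewer cells of a type and less RNA per cell cannot be told apart.

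No gene of the set differed between PDTLN1 and control cells beyond the spread between libraries by the tests run. Of the 41 genes with enough counts to be tested, 0 passed edgeR's quasi-likelihood test at an adjusted p of 0.05, 0 passed DESeq2's test, and 0 had an unadjusted edgeR p under 0.05. Across all 13836 tested genes, the same shares were 0.0217% for adjusted edgeR p, 0.0723% for DESeq2 and 3.99% for unadjusted edgeR p, so a count of 0 among 41 genes is near the background. The log2 fold changes, PDTLN1 over control, ran from -0.27 to 0.54 with a median of -0.03, beside a median of -0.001 over all tested genes. They were above 0 for 16 genes and below 0 for 25 genes, and 50.3% of all tested genes were below 0. Libraries of the groups overlapped for 40 genes and stood apart for 1, with PDTLN1 below control. Groups stood apart with PDTLN1 below for 4.98% of all tested genes, with PDTLN1 above for 4.81%, and in either direction for 9.79%. The standard errors were between 0.06 and 0.61 on the log2 scale with a median of 0.12.

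**Figure D1:**
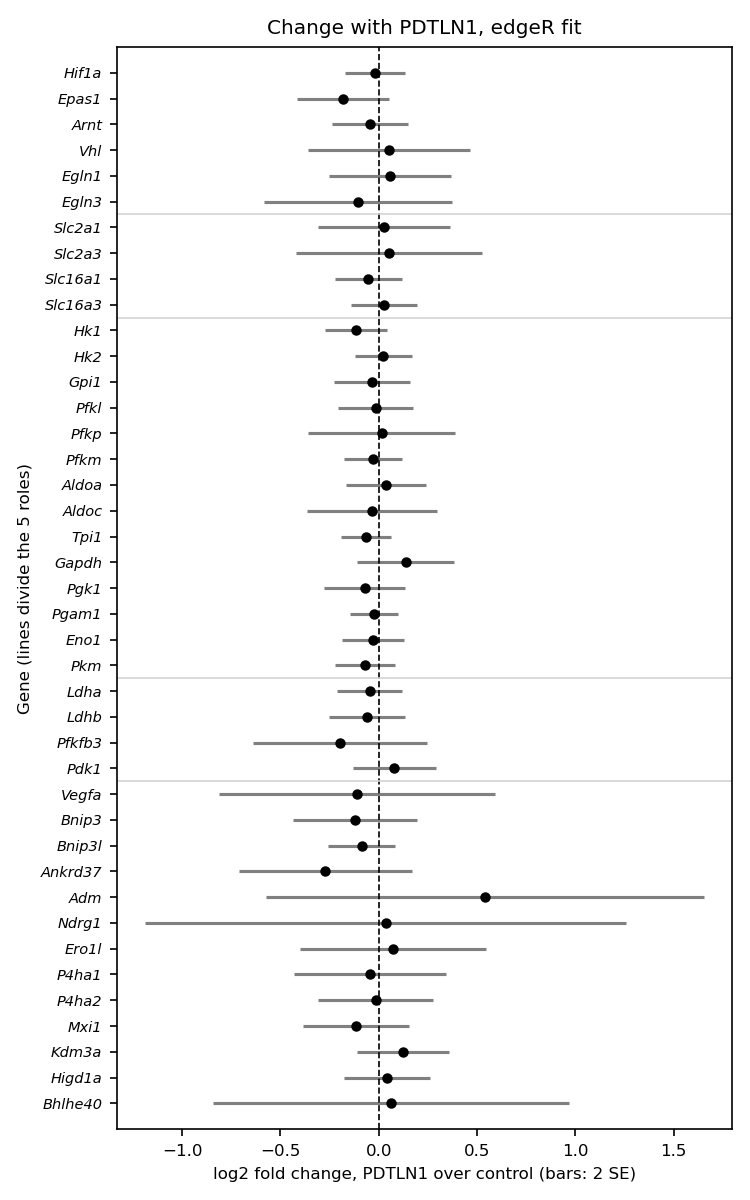
Each point is the log2 fold change of a gene, PDTLN1 over control (x axis), from the edgeR fit on 3 libraries per group, with bars of 2 standard errors and genes grouped by role (y axis). The points run from -0.27 for Ankrd37 to 0.54 for Adm, and the widest bars belong to Ndrg1, Adm and Bhlhe40.

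Promoter sequence is shown for genes on which the comparisons below turn, to show the letters through which HIF is known to bind. The core of the hypoxia response element is ACGTG or GCGTG, searched here on both strands in RefSeq promoter windows of build GRCm38.p6, from 250 bases before to 50 bases after a transcript start. Of the 42 genes, 37 matched a RefSeq entry, with Ero1l matched under its newer symbol Ero1a, while Epas1, Slc2a3, Bnip3l, Ndrg1 and Bhlhe40 had none. The 8 stretches below are written on the strand of the gene with the motif in capitals. Capitals that read CACGT or CACGC are the reverse complement of ACGTG or GCGTG.
Slc2a1, chr4:119108699-119108723, plus strand, motif 36 bases before the start: cccgccccggACGTGctccccaggc
Pgk1, chrX:106186940-106186964, plus strand, motif 150 bases before the start: gtcgtgcaggACGTGacaaatggaa
Ldha, chr7:46845747-46845771, plus strand, motif 47 bases before the start: cccagcctacACGTGggttcccgca
Bnip3, chr7:138909599-138909623, minus strand, motif 107 bases before the start: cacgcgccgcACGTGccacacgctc
Egln3, chr12:54204089-54204113, minus strand, motif 229 bases before the start: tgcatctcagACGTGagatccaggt
Ero1l, chr14:45318621-45318645, minus strand, motif 63 bases before the start: cgcgccgctgCACGTccgcagggga
Vegfa, chr17:46025360-46025384, minus strand, motif 211 bases before the start of the second of its 2 RefSeq promoters: agtgcgtgccCACGTcagagagcaa
Adm, chr7:110627557-110627581, plus strand, motif 90 bases before the start: tagaagcaagCACGCtggagaggga
The Ldha and Bnip3 motifs lie inside CACGTG, the palindrome that other basic helix-loop-helix factors also bind.

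ACGTG or GCGTG was present in the windows of 34 of 37 matched genes (91.9%), against 68.1% of 10122 tested genes with a window and 46.7% of all 27025 genes in the promoter table. ACGTG alone was present for 26 of 37 genes (70.3%), against 29.2% of tested genes and 21.8% of all genes. GCGTG alone was present for 25 of 37 genes (67.6%), against 56.8% of tested genes and 35.2% of all genes. CACGTG, which also holds ACGTG, was found for 6 of 37 genes (16.2%), against 11.8% of tested genes and 8.09% of all genes. Shares per gene also depend on windows per gene, with 55 windows for the 37 genes and 12995 for the 10122 tested genes. Per window, either motif was in 78.2% against 61.9% for tested genes, and ACGTG in 54.5% against 24.9%. GCGTG was closer, in 54.5% of windows against 50.7%, as was CACGTG, in 10.9% against 9.8%. These genes were listed as HIF targets or glycolytic enzymes, and a match describes the letters of the window without showing that HIF binds there in P19 cells.

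Among the oxygen sensing genes, Hif1a, which encodes the main HIF alpha subunit, was expressed at like levels in all libraries. Hif1a had 288.5, 256.0 and 267.6 CPM in PDTLN1 libraries 1, 2 and 3, against 247.0, 278.9 and 296.7 CPM in control libraries 1, 2 and 3. The groups overlapped, and the fold was 0.987 with an interval of 2 standard errors from 0.887 to 1.10. Epas1, which encodes the alternative alpha subunit HIF-2 alpha, had 14.6, 13.8 and 14.5 CPM in PDTLN1 libraries, against 16.8, 17.0 and 15.0 CPM in control libraries. It was the gene whose groups did not overlap, with the highest PDTLN1 library just below the lowest control library. Its log2 fold change was -0.18 ± 0.12 (SE), and the adjusted p by edgeR's quasi-likelihood test was 0.989. Per gene length, Hif1a averaged 39.1 FPKM ± 2.72 and Epas1 2.87 FPKM ± 0.241 (SD over 6 libraries). FPKM are counts per gene length and library total. The lengths used are not given, and for some genes CPM against FPKM implies a length beyond the whole gene. Gapdh, for instance, had 54.3 CPM and 6.28 FPKM in control library 1, and its gene spans chr6:125161715-125166467. Comparisons between genes by FPKM are therefore given as deposited, and their order may reflect the lengths used.

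The partner and the degradation arm also overlapped between the groups. Arnt, the common partner subunit, had 125.6, 100.5 and 112.4 CPM in PDTLN1 libraries, against 106.6, 115.8 and 126.2 CPM in control libraries. Vhl, the substrate receptor of the ubiquitin ligase, had 36.1, 29.1 and 31.5 CPM in PDTLN1 libraries, against 28.1, 23.2 and 41.8 CPM in control libraries. The controls alone differed by 1.80-fold for Vhl, more than the 1.24-fold among PDTLN1 libraries. Egln1, the main oxygen-sensing hydroxylase, had 93.1, 58.5 and 70.6 CPM in PDTLN1 libraries, against 69.9, 75.8 and 67.7 CPM in control libraries. Egln3, a hydroxylase that is itself a HIF target, had 73.5, 36.5 and 57.1 CPM in PDTLN1 libraries, against 65.3, 61.0 and 53.4 CPM in control libraries. For both hydroxylases PDTLN1 library 1 was the highest of the 6 libraries and PDTLN1 library 2 the lowest. Both hydroxylases had like deposited FPKM, with 20.6 FPKM ± 3.24 for Egln1 and 21.7 FPKM ± 4.67 for Egln3 (SD over 6 libraries).

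Both glucose transporters were well expressed, and Slc2a3 was the higher by deposited FPKM and by CPM. Slc2a3, which encodes the high-affinity carrier GLUT3, averaged 161.0 FPKM ± 33.0, and Slc2a1, which encodes the widespread carrier GLUT1, 59.8 FPKM ± 9.39 (SD over 6 libraries). Slc2a1 had 394.4, 238.7 and 314.7 CPM in PDTLN1 libraries, against 317.1, 302.0 and 310.9 CPM in control libraries. The control values lay within 1.05-fold of each other and the PDTLN1 values within 1.65-fold, with libraries 1 and 2 above and below every control. Slc2a3 showed the same order, with 2321, 1243 and 1816 CPM in PDTLN1 libraries against 1513, 1871 and 1806 CPM in control libraries. The fold was 1.02 for Slc2a1 (interval 0.806 to 1.29) and 1.04 for Slc2a3 (interval 0.746 to 1.44). Lactate leaves and enters cells through the monocarboxylate carriers. Slc16a3 (MCT4, linked to export) at 52.4 FPKM ± 4.36 and Slc16a1 (MCT1) at 50.8 FPKM ± 4.13 were level by deposited FPKM. By CPM they were not, with control means of 454.9 for Slc16a3 and 229.2 for Slc16a1. Slc16a3 differed by 1.15-fold and Slc16a1 by 1.22-fold among PDTLN1 libraries, and by 1.24-fold and 1.15-fold among control libraries.

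Pkm, Pgam1 and Pgk1, which act late in glycolysis, had the highest deposited FPKM of the set. Pkm, pyruvate kinase, averaged 1640 FPKM ± 118 (SD over 6 libraries) and was the highest of the 42 genes by FPKM. It was followed by Pgam1, phosphoglycerate mutase, at 446.4 FPKM ± 20.5 and Pgk1, phosphoglycerate kinase, at 428.0 FPKM ± 43.0. Pgam1 was above Pgk1 in 5 of the 6 libraries, with PDTLN1 library 1 the other way. Ldha, the lactate dehydrogenase subunit favoured in glycolytic cells, stood next at 313.5 FPKM ± 24.6. Aldoa, an aldolase, at 199.3 FPKM ± 20.0 and Tpi1, triose phosphate isomerase, at 182.0 FPKM ± 9.98 came after it, with Aldoa above Tpi1 in each of the 6 libraries. CPM, which are not divided by length, gave another order. Control means were 1730.0 CPM for Slc2a3, 1464.2 CPM for Ldha and 1164.5 CPM for Aldoa. Pgam1 was lower at 825.4 CPM, with Tpi1 below it at 735.7 CPM. The place of Pgam1 thus depends on the lengths used in the FPKM. At the other end of the FPKM order, Ankrd37, a HIF target with ankyrin repeats, averaged 2.01 FPKM ± 0.412 and Car9 0.0245 FPKM.

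**Figure D2:**
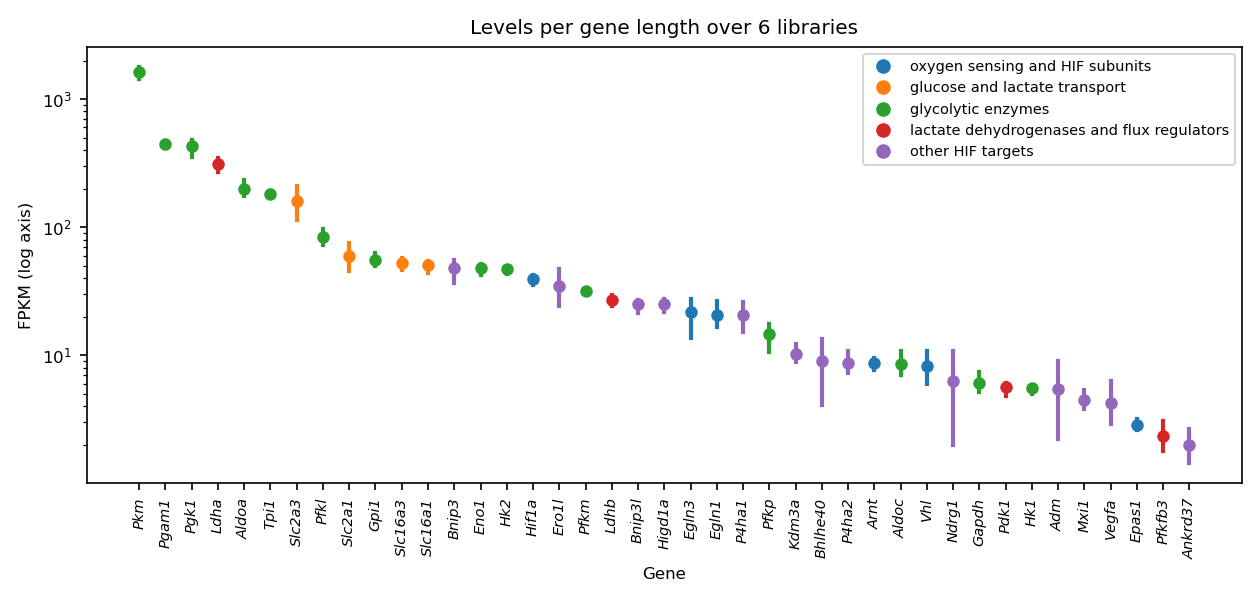
FPKM of each gene on a log axis (y axis), ordered from high to low (x axis), with points at the mean and lines from the lowest to the highest of the 6 libraries, coloured by role. Pkm leads at 1640 FPKM, Hif1a lies at 39.1 FPKM, Gapdh at 6.03 FPKM sits among the lowest genes, and Car9 at 0.0245 FPKM is not drawn.

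None of the abundant enzymes passed the test, and their intervals were narrow. Pkm had 4662, 3760 and 4077 CPM in PDTLN1 libraries, against 4417, 4429 and 4262 CPM in control libraries, a fold of 0.954 (interval 0.857 to 1.06). Pgk1 had 1474, 1072 and 1280 CPM in PDTLN1 libraries, against 1373, 1326 and 1324 CPM in control libraries, a fold of 0.951 (interval 0.825 to 1.10). In both genes PDTLN1 library 1 was above, and libraries 2 and 3 below, every control. Aldoa had 1390, 1031 and 1164 CPM in PDTLN1 libraries, against 1139, 1221 and 1134 CPM in control libraries. Tpi1 had 765.2, 668.4 and 678.1 CPM in PDTLN1 libraries, against 734.9, 761.1 and 711.1 CPM in control libraries. Pgam1 had 861.4, 756.3 and 817.6 CPM in PDTLN1 libraries, against 850.6, 830.9 and 794.6 CPM in control libraries. These 3 enzymes again had PDTLN1 library 1 at the top and library 2 at the bottom, with the controls inside that range.

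The entry enzymes were led by Hk2, Pfkl and Gpi1. Hexokinase 2 (Hk2, the inducible form) averaged 47.3 FPKM ± 2.96 and hexokinase 1 (Hk1) 5.59 FPKM ± 0.350 (SD over 6 libraries). Hk1 had 71.5, 61.5 and 66.4 CPM in PDTLN1 libraries, against 70.7, 73.2 and 72.1 CPM in control libraries, with a log2 fold change of -0.12 ± 0.08 (SE). Its share of hexokinase FPKM was 10.4%, 10.2% and 9.76% in PDTLN1 libraries, against 10.5%, 10.9% and 11.8% in control libraries. The size of such a share depends on the lengths used in the deposited FPKM. Without division by length, control means were 72.0 CPM for Hk1 and 321.9 CPM for Hk2. The Hk1 share was the isozyme share whose groups did not overlap, and an exact two-sided permutation test over the libraries gave p = 0.1, the smallest that 3 against 3 allows, and 1.0 after Benjamini-Hochberg adjustment over 10 families. The phosphofructokinases, the committed step, were mostly the liver form Pfkl by FPKM. It held 64.3% ± 1.14 of the family FPKM in PDTLN1 libraries and 64.4% ± 1.52 in control libraries (SD, n = 3 each). The order of the other forms depended on the measure. Pfkm was above Pfkp by mean FPKM (31.7 against 14.6) and below it by control mean CPM (94.7 against 172.3). Aldoa held 96.0% ± 0.466 of its pair with Aldoc, the brain form, in PDTLN1 libraries and 95.8% ± 0.103 in control libraries (SD, n = 3 each). The shares of the other families overlapped between the groups, each with an exact permutation p of 1.0 after adjustment.

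The remaining entry and aldolase genes overlapped between the groups. Gpi1 (glucose-6-phosphate isomerase), Pfkl, Pfkp (the platelet form) and Aldoc all had PDTLN1 library 1 highest and library 2 lowest. The ratio of the highest to the lowest PDTLN1 library was 1.28 for Gpi1, 1.32 for Pfkl, 1.68 for Pfkp and 1.56 for Aldoc, and the control ratios were 1.16, 1.06, 1.17 and 1.10 in that order. Hk2 and Pfkm (the muscle form) were flatter, at 1.15 and 1.11 within PDTLN1 libraries and 1.12 and 1.11 within control libraries. Over the 14 glycolytic enzymes, 4 log2 fold changes were above 0 and 10 below 0, with a median of -0.03.

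Several enzymes have processed copies, mostly pseudogenes, which are intron-free copies of the messenger RNA reinserted in the genome and whose reads can be shared with the parent gene. In GENCODE release M21 (GRCm38), copies at 90% identity or more were annotated for 14 of the 42 genes. Gapdh, glyceraldehyde-3-phosphate dehydrogenase, had 171 of them, Ldha 10, Eno1 7 and Pkm 6. The count table held rows for 10 Gapdh copies, 2 Ldha copies, 1 Eno1 copy and 0 Pkm copies. How reads with several matches were counted is not given in the sources used here.

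Eno1, the main enolase, was the gene with the most counts in a copy. Its row held 4228, 3868 and 4436 counts in PDTLN1 libraries, against 4248, 3982 and 4078 counts in control libraries. Its copy Eno1b is annotated as a protein-coding gene, at 99.5% identity to Eno1 over the aligned part. The row of Eno1b held 7798, 7544 and 8893 counts in PDTLN1 libraries, against 7577, 7830 and 8272 counts in control libraries. The copy thus held 65.9% of their summed counts, more than the parent row itself. The single copy Bnip3l-ps held 32.6% of the sum for Bnip3l, the Gapdh copies 19.9% of the sum for Gapdh, and Gm1840 13.9% of the sum for Gpi1. For Pgam1, Tpi1, Ldha, Pgk1 and Aldoa the share was 4.15%, 3.80%, 0.530%, 0.300% and 0.174%. The Aldoa copy in the table, Aldoart1, is likewise annotated as protein-coding, and the other copies in the table as pseudogenes.

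**Figure D3:**
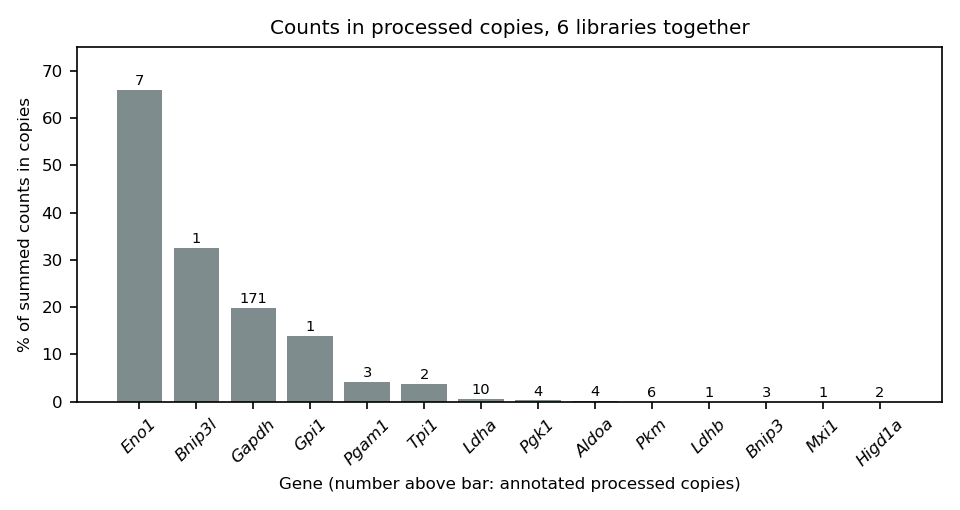
Share of the counts of a gene and its processed copies that fell in the copies, in percent over all 6 libraries (y axis), with the number of annotated copies above each bar. Eno1 reaches 65.9%, Bnip3l 32.6% and Gapdh 19.9%, while Pkm with 6 copies and Ldhb with 1 copy are at 0%.

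Gapdh was low for an enzyme usually counted among the most abundant transcripts. It averaged 6.03 FPKM ± 0.792 (SD over 6 libraries), far below the enzymes that act directly before and after it, Tpi1 and Pgk1. The Gapdh FPKM implies a length beyond the gene itself, so FPKM do not give the size of that gap. In CPM, which are not divided by length, the control means were 49.6 for Gapdh, 735.7 for Tpi1 and 1340.5 for Pgk1. Gapdh had 48.5, 51.2 and 64.1 CPM in PDTLN1 libraries, against 54.3, 50.1 and 44.5 CPM in control libraries. It was among the few genes whose PDTLN1 library 2 was not the lowest, and its highest value was in PDTLN1 library 3. Its log2 fold change was 0.14 ± 0.12 (SE) alone and 0.11 with the counts of the 10 copies added. Adding copies moved the log2 fold change of Eno1 to -0.02 from -0.03, that of Bnip3l to -0.02 from -0.09, and changed no direction among the 41 genes. The level of Gapdh and of Eno1 in this table is therefore a level of the row and not of the whole transcript family, and the part of shared reads in it was not tested.

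At the branch after pyruvate, Ldha was the main lactate dehydrogenase transcript. Ldha had 1588, 1243 and 1422 CPM in PDTLN1 libraries, against 1480, 1496 and 1417 CPM in control libraries, a fold of 0.968 (interval 0.863 to 1.09). Ldha made up 92.0% ± 0.203 of lactate dehydrogenase FPKM in PDTLN1 libraries and 92.0% ± 0.648 in control libraries, the rest being Ldhb (SD, n = 3 each). Pdk1, the HIF-induced kinase that closes the route from pyruvate into the mitochondrion, had 69.2, 58.0 and 68.3 CPM in PDTLN1 libraries, against 64.6, 66.3 and 54.2 CPM in control libraries. Its lowest value was in a control library, and the log2 fold change was 0.08 ± 0.11 (SE). Pfkfb3, which makes the sugar phosphate that activates phosphofructokinase, had 37.4, 33.9 and 52.2 CPM in PDTLN1 libraries, against 58.1, 48.3 and 35.1 CPM in control libraries. The highest value was in control library 1 and the lowest in PDTLN1 library 2, and the groups overlapped.

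The other HIF targets varied most, and they did so inside the PDTLN1 group. Ndrg1 (chr15:66929321-66969640 in GRCm38, minus strand), a stress-induced gene, had 91.8, 16.9 and 53.0 CPM in PDTLN1 libraries, against 50.2, 57.3 and 50.0 CPM in control libraries. The PDTLN1 libraries differed by 5.45-fold and the control libraries by 1.15-fold, while the group means were nearly equal, with a fold of 1.02 (interval 0.439 to 2.39). Bhlhe40 (chr6:108660629-108666925, plus strand), a transcriptional repressor, had 86.1, 26.2 and 65.4 CPM in PDTLN1 libraries, against 52.7, 68.8 and 48.7 CPM in control libraries. Its PDTLN1 libraries differed by 3.29-fold and its control libraries by 1.41-fold. Ero1l (chr14:45283092-45318572, minus strand), an oxidase of protein folding in the endoplasmic reticulum, had 207.3, 106.9 and 159.5 CPM in PDTLN1 libraries, against 160.2, 151.4 and 138.7 CPM in control libraries. Ndrg1 overlaps the predicted genes Gm17035 and Gm2895 and Bhlhe40 overlaps 0610040F04Rik on the opposite strand. In all 3 genes PDTLN1 library 1 was above every control, library 2 was below every control, and library 3 lay between the other PDTLN1 libraries.

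The secreted vascular factors followed that order in part. Adm (chr7:110627661-110629820, plus strand), the vasodilator peptide adrenomedullin, had 26.1, 6.43 and 23.1 CPM in PDTLN1 libraries, against 16.1, 14.0 and 8.16 CPM in control libraries. Both PDTLN1 libraries 1 and 3 exceeded every control for Adm, and library 2 was below every control. Its log2 fold change of 0.54 ± 0.56 (SE) was the highest of the set and about as large as its error. Vegfa (chr17:46016993-46032377, minus strand), the vascular growth factor, had 65.8, 30.2 and 31.6 CPM in PDTLN1 libraries, against 36.2, 45.7 and 55.5 CPM in control libraries. For Vegfa, PDTLN1 library 1 stood alone at the top and the other 2 PDTLN1 libraries were below every control, with a fold of 0.927 (interval 0.570 to 1.51). In a fit of 2 against 2 libraries without both libraries numbered 1, Vegfa was the gene of the set that passed. That fit was chosen with earlier results known and called more of all genes than the fit of 6 libraries. It also left out the PDTLN1 library in which Vegfa was highest. The log2 fold change of Vegfa in that fit was -0.71. EdgeR's quasi-likelihood test gave Vegfa an adjusted p of 0.0464, within a range of 0.0464 to 1.0 over the 15 alternatives.

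**Figure D4:**
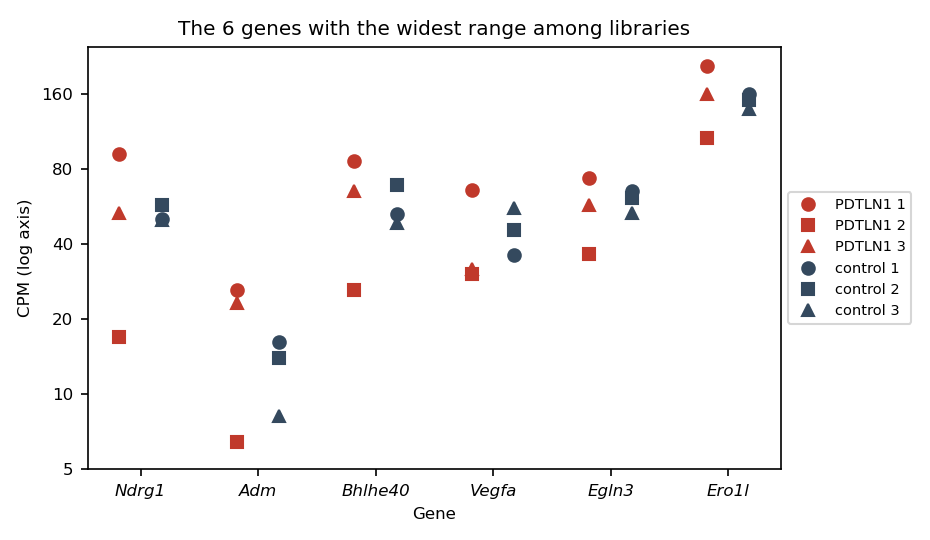
CPM on a log axis (y axis) of the 6 genes with the widest range over the libraries at a mean of 10 CPM or more (x axis), with PDTLN1 libraries at the left and control libraries at the right of each gene and a symbol per replicate number. For Ndrg1 the PDTLN1 libraries run from 16.9 to 91.8 CPM around control libraries at 50.0 to 57.3 CPM.

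Mitophagy receptors, collagen enzymes and the remaining targets varied less. Bnip3, a mitophagy receptor induced by HIF, had 172.4, 116.8 and 150.5 CPM in PDTLN1 libraries, against 175.6, 167.9 and 134.1 CPM in control libraries. Its paralog Bnip3l had 127.9, 110.3 and 138.5 CPM in PDTLN1 libraries, against 137.9, 132.2 and 130.0 CPM in control libraries. Library 2 was again the lowest in both, and the highest was control library 1 for Bnip3 and PDTLN1 library 3 for Bnip3l. Kdm3a, an oxygen-dependent histone demethylase, had 161.3, 115.7 and 142.9 CPM in PDTLN1 libraries, against 132.3, 135.5 and 117.7 CPM in control libraries. Higd1a, a mitochondrial protein induced by hypoxia, had 50.0, 40.7 and 51.8 CPM in PDTLN1 libraries, against 49.3, 44.7 and 44.3 CPM in control libraries. Ankrd37 had 5.42, 4.17 and 6.23 CPM in PDTLN1 libraries, against 5.95, 7.78 and 5.38 CPM in control libraries. Ankrd37 had the lowest log2 fold change of the set, -0.27 ± 0.22 (SE), and its row overlaps Ufsp2 and Lrp2bp on the opposite strand.

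P4ha1 and P4ha2, the collagen prolyl 4-hydroxylases, had PDTLN1 library 1 at the top and library 2 at the bottom, with 1.74-fold and 1.51-fold between the ends among PDTLN1 libraries and 1.17-fold and 1.11-fold among control libraries. Mxi1, a MYC antagonist, was the tested target with PDTLN1 library 1 below library 2, with 21.4, 24.0 and 27.5 CPM in PDTLN1 libraries, against 30.2, 24.5 and 24.3 CPM in control libraries. Car9, the carbonic anhydrase often used as a hypoxia marker, had 2, 3 and 0 counts in PDTLN1 libraries and 1, 0 and 0 counts in control libraries and was not tested. At these depths a count of 0 allows up to 0.257 to 0.289 CPM, taking 3 counts as the limit and covering counting error only. Car9 was therefore at or near the limit of detection in every library.

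The order of the PDTLN1 libraries recurred across the set, a pattern chosen for description after the values were seen. PDTLN1 library 1 was the highest of the 6 libraries for 25 of 41 genes (61.0%), against 17.4% of all tested genes. PDTLN1 library 2 was the lowest for 35 of 41 genes (85.4%), against 21.5% of all tested genes. Both held for 24 of 41 genes (58.5%), against 5.70% of all tested genes and 6.04% of tested genes at 10 CPM or more. PDTLN1 library 2 was below every control for 36 of 41 genes (87.8%) and above every control for 0 genes, against 29.8% and 28.6% of all tested genes. PDTLN1 library 3 was above every control for 8 genes (19.5%) and below every control for 10 genes (24.4%), near the 24.5% and 24.9% of all tested genes. PDTLN1 library 3 was thus placed close to the shares of all tested genes, and libraries 1 and 2 were not.

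The distance between PDTLN1 libraries 1 and 2 varied by role, and the roles were not tested against each other. Library 1 exceeded library 2 for 39 of 41 genes, by a median of 0.35 on the log2 scale, against 50.1% of all tested genes and a median of 0.00. The median was 0.315 for the oxygen sensing genes, 0.50 for the transporters and 0.30 for the glycolytic enzymes. It was 0.27 for the lactate dehydrogenases and flux regulators. For the other HIF targets it was 0.59, with the widest value of 2.43 for Ndrg1. Among further genes of glycolysis and of the hypoxia response, described below, the medians were 0.14 and 0.18. Mean deviations from the gene average were 0.21, -0.31 and 0.04 log2 units in PDTLN1 libraries 1, 2 and 3, against 0.03, 0.07 and -0.04 in control libraries 1, 2 and 3. The SD of log2 CPM was larger among PDTLN1 libraries than among control libraries for 34 of 41 genes (82.9%), against 55.7% of all tested genes. For the other HIF targets that was so for 13 of 13 tested genes, with a median SD of 0.31 in PDTLN1 libraries and 0.11 in control libraries.

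**Figure D5:**
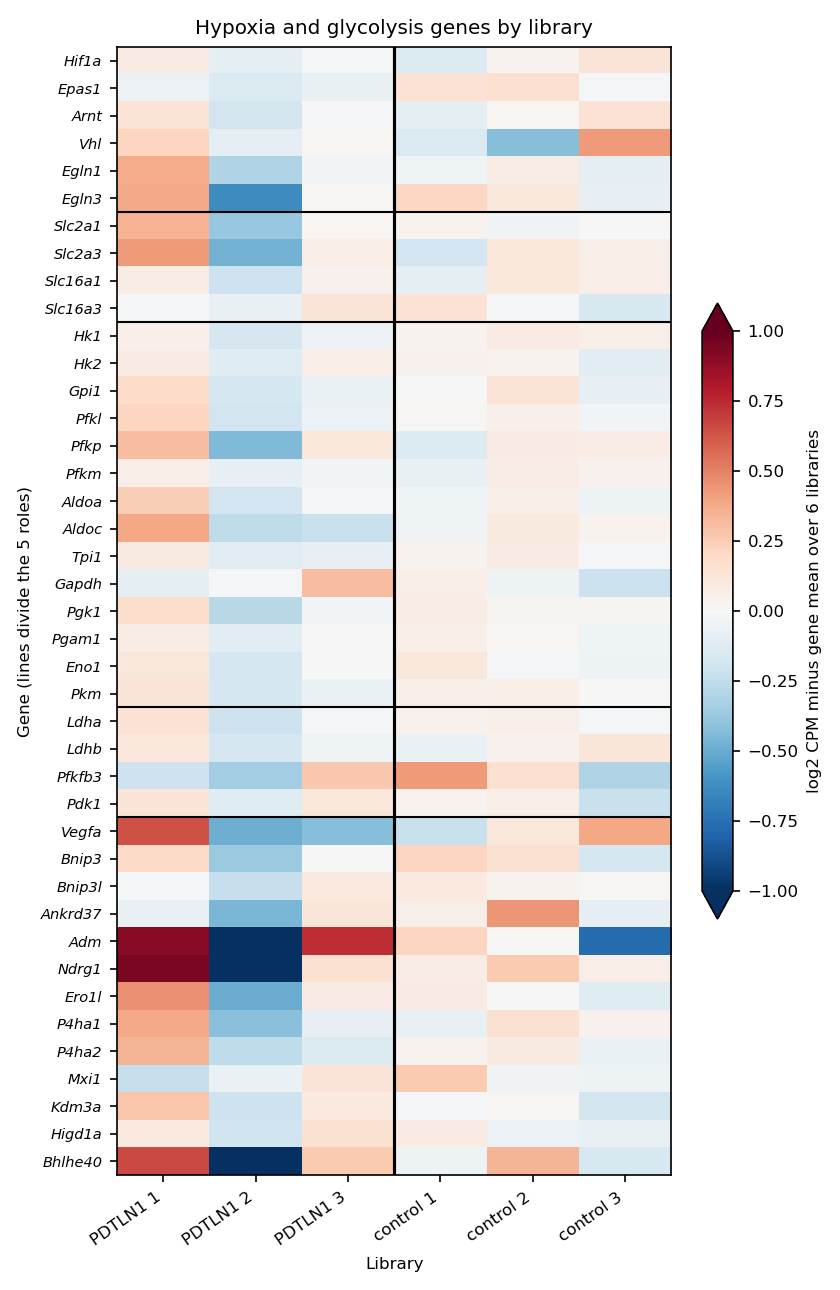
Log2 CPM of each tested gene minus its mean over the 6 libraries (colour), with PDTLN1 libraries 1 to 3 left and control libraries 1 to 3 right of the vertical line, and genes in rows by role. PDTLN1 library 1 is mostly red and library 2 mostly blue, with library 2 the lowest for 35 of 41 genes.

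Other measures of these libraries are given beside that pattern. The share of counts in the 42 genes was 1.84%, 1.38% and 1.62% in PDTLN1 libraries, against 1.63%, 1.68% and 1.61% in control libraries. Mitochondrial transcripts summed to 34776, 38023 and 36553 CPM in PDTLN1 libraries, against 40259, 37166 and 35665 CPM in control libraries. TMM factors were between 0.997 and 1.005 in the 6 libraries. A list of 30 ATF4 and amino acid response genes, of which 29 were tested, had mean deviations of 0.36, -0.41 and -0.16 log2 units in PDTLN1 libraries and of -0.31, 0.15 and 0.36 in control libraries. That list thus shared the high PDTLN1 library 1 and low library 2 but spread as widely among the controls, where the hypoxia and glycolysis genes did not. The part of these measures in the pattern was not tested.

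Among 83 other genes of the same pathways, 66 were tested and 0 passed edgeR's adjusted threshold or DESeq2's, beside 0.0217% and 0.0723% of all tested genes. Of the 66 genes, 2 were higher in PDTLN1 libraries at an unadjusted edgeR p under 0.05, beside 318 of all 13836 tested genes, a similar share. Lox, the collagen cross-linking oxidase, had 10.5, 9.21 and 7.26 CPM in PDTLN1 libraries, against 6.53, 6.28 and 6.27 CPM in control libraries. Fos, an immediate early transcription factor, had 5.52, 5.74 and 6.75 CPM in PDTLN1 libraries, against 5.38, 3.47 and 3.32 CPM in control libraries. Lox and Fos were above every control in all 3 PDTLN1 libraries, with log2 fold changes of 0.50 ± 0.18 and 0.57 ± 0.23 (SE). Their adjusted p was 0.989 each by edgeR's quasi-likelihood test. Groups stood apart with PDTLN1 above for 3 of the 66 genes, Lox and Fos among them, against 4.81% of all tested genes.

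The next genes by p were smaller in effect and overlapped between the groups. Bpgm, which makes the bisphosphoglycerate side product of glycolysis, had a log2 fold change of 0.26 ± 0.13 (SE), and Flt1, a VEGF receptor, 0.24 ± 0.14 (SE). Hif1an, the asparaginyl hydroxylase that blunts HIF activity, had -0.15 ± 0.07 (SE). Pgm1, a phosphoglucomutase, had -0.12 ± 0.08 (SE) and Rora, a nuclear receptor, -0.22 ± 0.15 (SE). Of these 5 genes, 0 had an unadjusted edgeR p under 0.05.

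The order of PDTLN1 libraries 1 and 2 was also seen in these lists. Library 1 was highest and library 2 lowest for 7 of 26 other glycolysis genes (26.9%) and 8 of 40 other hypoxia genes (20.0%), against 5.70% of all tested genes. The shares were not tested against the 58.5% of the 41 genes. Eno2, the neuronal enolase, had 104.9, 30.0 and 69.3 CPM in PDTLN1 libraries, against 63.3, 77.5 and 61.9 CPM in control libraries. Ddit4, a HIF and stress target that restrains mTOR, had 215.5, 42.5 and 116.8 CPM in PDTLN1 libraries, against 122.3, 165.0 and 167.1 CPM in control libraries. Both were named after their values were seen, and both had PDTLN1 library 1 above and library 2 below every control.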

How the data were processed

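The treatment label assigned 3 libraries of P19 cells to PDTLN1 and 3 to control. Per the file headers, the authors deposited read counts per gene, which are whole numbers with no normalization. The FPKM deposited by the authors followed those counts: for 15678 genes with counts in every library, the ratio of count to FPKM varied by at most 0.0635% between libraries. Bowtie 0.12.2 and the builds mm8 and mm9 are named in the submitters' processing notes with no role. For strand handling, reads with several matches, counting software and annotation, nothing is given in the sources used here. Of the table's gene IDs, 34267 are in GENCODE M21 and 80.8% of these have the same coordinates there, as do 32 of the 42 genes, so coordinates are given as GRCm38. Of the 42 genes, 18 overlap another gene of the table, and their counts may hold its reads.

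Counts were fitted with edgeR 4.0.16 in R 4.3.3 (filterByExpr, TMM, robust glmQLFit, glmQLFTest, two-sided, Benjamini-Hochberg over 13836 genes, threshold 0.05), with the steps tested on simulated data. FPKM served for levels between genes and for isozyme shares, with exact permutation tests. The lengths behind these FPKM are not given and for some genes, Gapdh among them, exceed the span of the gene. Intervals are 2 standard errors on the log2 scale. Processed copies were sought with blastn 2.17.0 in GENCODE M21 transcripts of processed pseudogenes and of retrogenes annotated as protein-coding and chosen by name, and counted at 90% identity or more over at least 50% of the copy and 200 bases. Alternatives tried were a replicate block, omission of each library or of both libraries numbered 1, DESeq2 1.42.0, its size factors, library totals alone, no filter, a stricter filter, a threshold of 0.1, isozyme shares from counts and, chosen after seeing the data, adding the counts of processed copies.

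The 42 genes, the lists and the alternatives were chosen with earlier results of these data known. Values per library were given for the 6 genes per direction with the smallest p, the 6 with the highest FPKM, the 6 with the widest range at 10 CPM or more, and 12 genes chosen by function (Hif1a, Epas1, Arnt, Vhl, Vegfa, Slc2a1, Ldha, Pgk1, Gapdh, Bnip3, Pdk1 and Car9), and of the other pathway genes for up to 4 per direction with the smallest p. Slc2a3, Pfkfb3, Eno1, Mxi1, Eno2 and Ddit4 were given values beyond that rule or after their values were seen. A gene of the other pathway lists that met this rule is not reported here.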

Additional observations from a re-analysis of the deposited data

How the results depend on the processing

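The count of called genes in the set was 0 under 14 of the 15 alternatives and 1 in the fit without both libraries numbered 1 (2 against 2), and it was 0 for the other pathway genes under each. That fit was chosen with earlier results known, and it called 91 of all genes, against 3 in the fit of 6 libraries. It gave 4 genes of the set an unadjusted p under 0.05, and the share of all tested genes with such a p in it is not given here. DESeq2 called 10 genes of all and the fit with no filter 8. The cause of these differences was not tested. The labels do not say whether the replicate numbers pair the libraries. Correlations of deviations from the group mean were -0.36, -0.14 and -0.10 for same-numbered libraries, and -0.185 to 0.283 for differently numbered ones. Deviations within a group of 3 are tied to each other, so these values do not settle pairing. With the replicate block, 1 gene of all was called and 0 of the set, the median log2 fold change of the set was -0.04, and the direction changed for Slc2a1 (-0.002), Pfkp (-0.01), Ndrg1 (-0.22), Bhlhe40 (-0.06) and Eno2 (-0.13). Without both libraries numbered 1, the log2 fold change was -0.10 for Vhl, -0.15 for Egln1, -0.15 for Slc2a1, -0.27 for Slc2a3, -0.22 for Pfkp, -0.10 for Aldoa, 0.04 for Pfkfb3, -0.62 for Ndrg1, -0.13 for Ero1l, 0.08 for Mxi1, -0.36 for Bhlhe40 and -0.49 for Eno2, each of the opposite sign. Other scalings, filters and thresholds, and the counts of processed copies added, changed the direction of 0 genes of the set.

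Leaving out each library in turn called 0 genes of the set and 2 to 13 of all genes, and gave 0 to 6 genes of the set an unadjusted p under 0.05. The 6, all lower, came without PDTLN1 library 1, where 35 of 41 log2 fold changes were below 0 with a median of -0.14. Without PDTLN1 library 2, 33 of 41 were above 0 with a median of 0.07, and 3 had an unadjusted p under 0.05. The shares of all tested genes with such p or direction in these fits are not given here. These counts are therefore not set against a background. Isozyme families whose groups did not overlap numbered 1 to 3. The direction of most genes of the set thus depends on which of these libraries is included. The log2 fold changes that crossed 0 had these ranges over the 6 fits: Hif1a -0.09 to 0.04, Arnt -0.13 to 0.03, Vhl -0.12 to 0.33, Egln1 -0.14 to 0.20, Egln3 -0.36 to 0.12, Slc2a1 -0.16 to 0.19, Slc2a3 -0.18 to 0.26, Slc16a1 -0.11 to 0.03, Slc16a3 -0.04 to 0.11, Hk2 -0.03 to 0.09, Gpi1 -0.14 to 0.04, Pfkl -0.14 to 0.07, Pfkp -0.15 to 0.20, Pfkm -0.07 to 0.01, Aldoa -0.09 to 0.13, Aldoc -0.27 to 0.08, Pgk1 -0.19 to 0.04, Pgam1 -0.07 to 0.02, Eno1 -0.10 to 0.04, Ldha -0.14 to 0.04, Ldhb -0.13 to 0.01, Pdk1 -0.01 to 0.16, Vegfa -0.57 to 0.09, Bnip3 -0.25 to 0.02, Ndrg1 -0.59 to 0.46, Ero1l -0.17 to 0.29, P4ha1 -0.28 to 0.12, P4ha2 -0.21 to 0.10, Higd1a -0.02 to 0.14, Bhlhe40 -0.31 to 0.42, Eno2 -0.44 to 0.37, Ddit4 -0.93 to 0.13 and Fam162a -0.09 to 0.15. With 3 libraries per group, a gene with a standard error of 0.61 (Ndrg1) cannot be placed within a 2-fold change either way.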
